A study of Mus musculus with 8 samples.

Results

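Collagen chains are the structural proteins of the extracellular matrix, and all 44 genes of the array annotation with a symbol of the form Col, number, a, number were followed here. They were chosen by symbol alone among 19938 genes measured, and each is represented by the transcript cluster (the set of probes summarised into 1 value) with the highest mean over the 8 arrays. The 44 symbols are also all that the RefSeq gene table of mouse build GRCm38.p6 holds in this form. They fall into 11 fibrillar chains, 6 chains of the basement membrane and 27 others. Expression was measured in the gastrocnemius, a calf muscle of mixed fibre types, of 8 male mice aged 6 months, fed chow and fasted for 5 h, with 1 Affymetrix array per animal. In 4 mice, the knockouts, both copies of Kat2a (also called Gcn5) were floxed (Gcn5 L2/L2) and an HSAcre transgene was present (Tg/0). The human skeletal actin promoter of that transgene acts in muscle fibres. The 4 wild types were also Gcn5 L2/L2 and carried no HSAcre (0/0). Both groups therefore had floxed alleles, and Cre itself cannot be told apart from the loss of Gcn5.

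A collagen molecule is built from 3 chains wound around each other, and the chains of 1 molecule can come from different genes. Fibrillar collagens form the tensile fibrils of tendon and of the sheaths around muscle fibres, type IV forms the network of basement membranes, and types such as VI and XII join fibrils, cells and basement membrane. In skeletal muscle, fibroblasts and fibro-adipogenic progenitors make most of the fibrillar collagen, and endothelial cells, pericytes and fibres contribute basement membrane. Gcn5, the product of Kat2a, is a lysine acetyltransferase of coactivator complexes, and cells other than fibres keep the gene in this model. In whole muscle, fewer cells of a type and less RNA per cell cannot be told apart.

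The targeted gene differed between the groups as labelled. Kat2a measured 5.79 ± 0.05 in knockout and 6.46 ± 0.03 in wild-type muscle (log2 signal, SD, n = 4 each), a difference of -0.66 (SE 0.08, limma adjusted p = 0.0319). With 1 array left out it passed in 2 of 8 refits (limma adjusted p = 0.0355 to 0.137), and the difference stayed between -0.68 and -0.64. The Kat2a difference also did not pass with a replicate block (limma adjusted p = 0.113), without both wild type 2 and knockout 4 (0.135) or when adjusted over all clusters (0.0660). Array medians lay between 4.61 and 4.72. The array of wild type 2 stood furthest apart, with a mean correlation of 0.977 to the remaining arrays, whose own means were 0.981 to 0.987. The muscle fibre markers had a list mean of 11.66 to 11.99 in knockouts and 11.85 to 11.97 in wild types. Of these 12 genes 5 were higher and 7 lower in knockout by mean, and 0 passed over all genes. Acta1 (skeletal alpha actin) measured 12.60 to 12.66 in knockouts and 12.62 to 12.72 in wild types. The widest difference of the list was -0.49 for Myh2, named here after its values were seen. Myh2 measured 10.12, 11.52, 11.46 and 9.03 in knockouts 1 to 4, against 10.49 to 11.38 in wild types.

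Collagen expression did not differ detectably between knockout and wild-type muscle. In limma's moderated test with adjustment over all genes (threshold 0.05), 0 of the 44 passed, against 0.0150% of all genes. The smallest adjusted p was 0.859. At an unadjusted p under 0.05 there was 1 collagen gene, Col6a4, lower in knockout, against a background of 5.73% of all genes in either direction and 3.39% lower in knockout. The knockout and wild-type values overlapped for every one of the 44, whereas 3.62% of all genes had groups that did not overlap. By mean, 21 members were higher and 23 lower in knockout, and 45.3% of all genes were higher. The median difference was -0.01 over the members and -0.01 over all genes. The median size of a difference, regardless of sign, was 0.06 over the members and 0.08 over all genes.

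The 4 arrays per group limit the precision. Half-widths of the 95% confidence intervals of the differences had a median of 0.22 log2 units over the members. The intervals of all 44 members excluded a 1.5-fold change in either direction, with the lowest bound at -0.50 and the highest at 0.39. For 25 members the interval lay within 0.3 log2 units of 0. The signal of dim genes is compressed by the normalization, and 14 of the 44 members had a mean at or below the median of all gene means (4.98). The signal of one gene cannot be ranked against that of another, since each has its own probes.

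**Figure D1:**
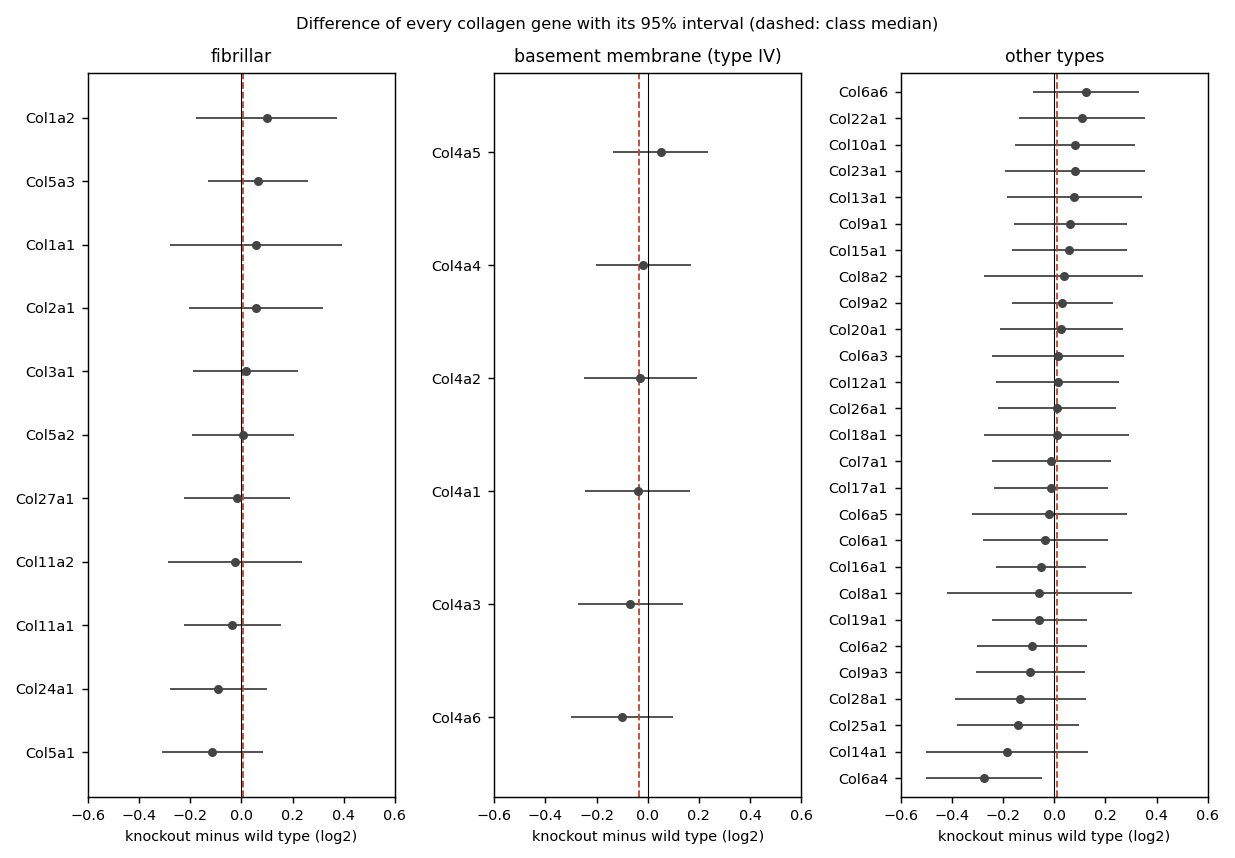
Difference of each of the 44 collagen genes (horizontal axis, knockout minus wild type in log2 units, with 95% confidence intervals from limma) in panels by class, with the class median as a dashed line. The interval of Col6a4 lies below 0, the other 43 include 0, and no interval reaches a 1.5-fold change.

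In the fibrillar class 6 of 11 genes were higher and 5 lower, the median difference was 0.01 and the values ran from -0.11 (Col5a1) to 0.10 (Col1a2). Type I collagen, the main fibril of tendon and muscle sheath, has chains from Col1a1 and Col1a2. Col1a1 measured 6.82, 7.28, 7.02 and 6.63 in knockouts 1 to 4, against 6.97, 6.49, 7.12 and 6.95 in wild types 1 to 4. Col1a2 measured 7.35, 7.67, 7.40 and 7.07 in knockouts 1 to 4, against 7.36, 7.04, 7.40 and 7.30 in wild types 1 to 4. Both chains were highest in knockout 2 and low in knockout 4 and wild type 2, so each genotype held high and low animals. The difference was 0.06 for Col1a1 (SE 0.15, 95% interval -0.28 to 0.39, limma adjusted p = 0.972) and 0.10 for Col1a2 (SE 0.13, -0.18 to 0.38, limma adjusted p = 0.936).

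Col3a1, whose type III fibrils accompany type I in soft tissue, measured 6.29, 6.41, 6.56 and 6.31 in knockouts, against 6.30, 6.28, 6.40 and 6.52 in wild types. Its groups covered almost the same range, and the difference was 0.02 (95% interval -0.19 to 0.22). Type V collagen sits inside type I fibrils and sets their diameter, and Col5a1 encodes its alpha1 chain. Col5a1 measured 5.84, 5.76, 5.94 and 5.66 in knockouts, against 5.84, 5.92, 5.85 and 6.03 in wild types. It had the most negative difference of the fibrillar class, at -0.11 (SE 0.09, limma adjusted p = 0.901), with overlapping groups. The other type V chains differed by 0.01 (Col5a2) and 0.07 (Col5a3). Col27a1, a fibrillar chain best known from cartilage, measured 5.66, 5.56, 5.68 and 5.47 in knockouts, against 5.66, 5.47, 5.77 and 5.53 in wild types, a difference of -0.02. The cartilage chains Col2a1, Col11a1 and Col11a2 differed by 0.06, -0.04 and -0.02, and Col24a1 by -0.09. Cartilage markers had a list mean of 3.80 to 3.94 in knockouts and 3.77 to 3.96 in wild types.

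**Figure D2:**
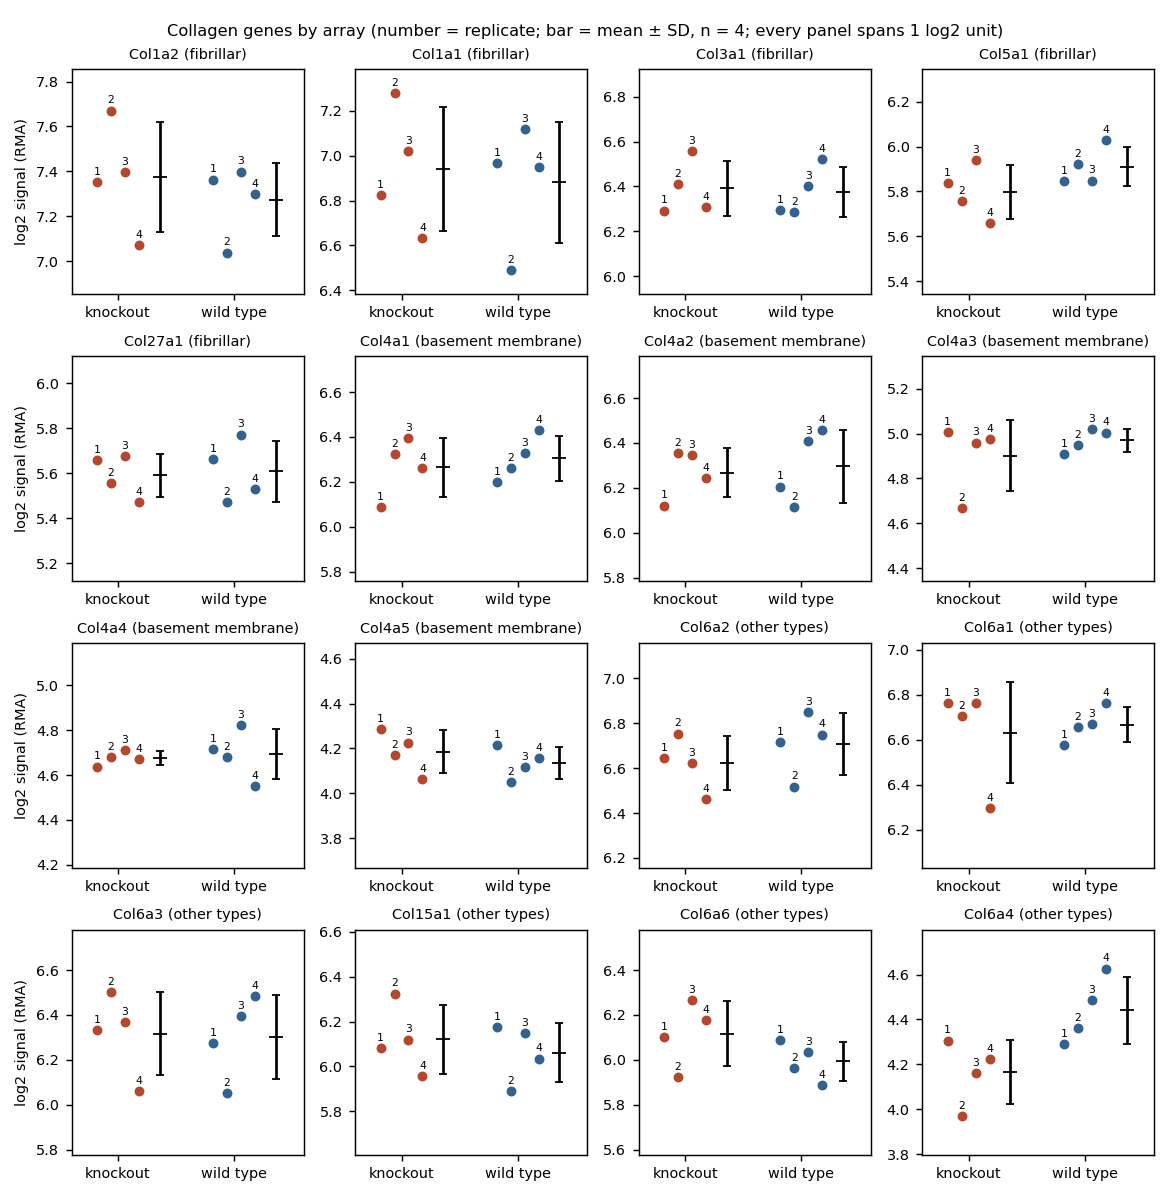
Log2 signal in each animal for the 5 members of each class with the highest mean and for Col6a4, with knockouts left and wild types right, replicate numbers above the points and bars for the mean ± SD (n = 4 each). Every panel spans 1 log2 unit, and in every panel the 2 groups overlap.

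Basement membrane collagen of type IV had 1 of 6 chains higher and 5 lower, with a median difference of -0.03 and values from -0.10 (Col4a6) to 0.05 (Col4a5). The alpha1 and alpha2 chains, encoded by Col4a1 and Col4a2, form the type IV network around muscle fibres and capillaries. Their genes lie head to head and are transcribed in opposite directions, so their promoters are shown together. In the RefSeq table the window from 250 bases before to 50 after the start is chr8:11312777-11313076 (minus strand) for Col4a1 and chr8:11312555-11312854 (plus strand) for Col4a2, both in GRCm38.p6. The capitals mark the 78 bases that the windows share, which read as reverse complements of each other because the strands differ.
Col4a1: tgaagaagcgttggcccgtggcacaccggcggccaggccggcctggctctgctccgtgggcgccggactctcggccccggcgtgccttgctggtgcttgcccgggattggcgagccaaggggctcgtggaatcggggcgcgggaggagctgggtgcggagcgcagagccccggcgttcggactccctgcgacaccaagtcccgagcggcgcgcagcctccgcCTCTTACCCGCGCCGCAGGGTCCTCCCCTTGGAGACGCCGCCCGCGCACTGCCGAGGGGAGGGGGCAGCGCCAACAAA
Col4a2: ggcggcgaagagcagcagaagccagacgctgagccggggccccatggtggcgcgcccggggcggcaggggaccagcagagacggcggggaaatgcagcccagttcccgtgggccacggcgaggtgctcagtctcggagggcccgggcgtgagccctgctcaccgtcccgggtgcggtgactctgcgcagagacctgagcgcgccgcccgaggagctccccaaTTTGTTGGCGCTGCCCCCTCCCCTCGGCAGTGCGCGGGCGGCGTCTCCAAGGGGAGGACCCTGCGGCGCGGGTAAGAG
Both windows were rich in G and C (74.0% for Col4a1 and 73.7% for Col4a2, against a median of 52.7% over all windows of the table). The shared stretch held 1 match to GGGCGG (the GC box, searched on both strands) and 0 matches to CCAAT or TATAAA.

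Col4a1 measured 6.09, 6.32, 6.39 and 6.26 in knockouts 1 to 4, against 6.20, 6.26, 6.33 and 6.43 in wild types 1 to 4. Col4a2 measured 6.12, 6.35, 6.35 and 6.24 in knockouts, against 6.21, 6.12, 6.41 and 6.46 in wild types. Both were lowest among knockouts in knockout 1 and highest of all in wild type 4, and the differences were -0.04 (95% interval -0.24 to 0.17) and -0.03 (-0.25 to 0.19). Endothelial markers were likewise lowest among knockouts in knockout 1 and highest among wild types in wild type 4, with list means of 6.98, 7.41, 7.20 and 7.03 in knockouts and 7.03, 7.09, 7.30 and 7.39 in wild types. Their part in the type IV values was not tested.

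The remaining type IV chains form the specialised networks of kidney, lung and other basement membranes. Col4a3 measured 5.01, 4.67, 4.96 and 4.98 in knockouts, against 4.91, 4.95, 5.02 and 5.00 in wild types, so its difference of -0.07 rested on knockout 2. Col4a4 measured 4.64, 4.68, 4.71 and 4.67 in knockouts, against 4.72, 4.68, 4.82 and 4.55 in wild types, and its knockout values fell inside the wild-type range. Col4a5 measured 4.29, 4.17, 4.23 and 4.06 in knockouts, against 4.22, 4.05, 4.12 and 4.16 in wild types, a difference of 0.05 with overlapping groups. Col4a3 and Col4a4, like Col4a5 and Col4a6, are neighbours on the chromosome.

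Among the 27 other collagens 14 were higher and 13 lower, with a median difference of 0.01 and a range from -0.28 to 0.12. Type VI collagen forms beaded filaments that tie the basement membrane of the fibre to the matrix, and loss of its main chains causes muscle disease in humans. Col6a1 measured 6.76, 6.70, 6.76 and 6.29 in knockouts 1 to 4, against 6.58, 6.66, 6.67 and 6.76 in wild types 1 to 4. Knockout 4 lay below every other animal, and the remaining knockouts lay within or at the top of the wild-type range (difference -0.04, SE 0.11). Without knockout 4 the Col6a1 difference was 0.08. Col6a2, its neighbour on the chromosome, measured 6.65, 6.75, 6.62 and 6.46 in knockouts, against 6.72, 6.52, 6.85 and 6.75 in wild types (difference -0.09, SE 0.10). Col6a3 measured 6.33, 6.50, 6.37 and 6.06 in knockouts, against 6.27, 6.05, 6.39 and 6.48 in wild types (difference 0.02, SE 0.12). All 3 main type VI chains were lowest among knockouts in knockout 4, and Col6a2 and Col6a3 were lowest among wild types in wild type 2.

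The further type VI chains gave the extremes of the whole family. Col6a4 measured 4.31, 3.97, 4.16 and 4.23 in knockouts, against 4.29, 4.36, 4.49 and 4.63 in wild types. All wild types exceeded every knockout except that knockout 1 lay just above wild type 1. The difference was -0.28 (SE 0.10, 95% interval -0.50 to -0.05, limma adjusted p = 0.859), the largest in size of the 44 and the 1 difference of at least 0.2 log2 units, a size reached by 11.6% of all genes. Col6a6, at the positive end, measured 6.10, 5.92, 6.27 and 6.18 in knockouts, against 6.09, 5.96, 6.03 and 5.89 in wild types (difference 0.12, SE 0.10, limma adjusted p = 0.897). A dimmer cluster of Col6a6 differed by 0.06. Col6a5, which lies between these genes on the chromosome, differed by -0.02 and in its dimmer cluster by 0.09.

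Collagens of the multiplexin group, types XV and XVIII, sit at basement membranes. Col15a1, whose loss causes a mild myopathy in mice, measured 6.08, 6.32, 6.12 and 5.96 in knockouts, against 6.17, 5.89, 6.15 and 6.04 in wild types. Its difference was 0.06 and that of Col18a1, the gene of the endostatin precursor, was 0.01. Fibril-associated collagens, which coat fibrils, had 5 of 9 genes higher and a median of 0.01. Among them Col14a1 differed by -0.18 (SE 0.15), with wild types spread from 5.41 to 6.22 and knockouts from 5.47 to 5.69. Col12a1, made at muscle sheaths and tendon, differed by 0.01, and Col22a1, a collagen of the junction between muscle and tendon, by 0.11. Col9a1, Col9a2 and Col9a3 differed by 0.06, 0.03 and -0.09, Col16a1 by -0.05, Col19a1 by -0.06 and Col20a1 by 0.03.

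Transmembrane collagens had 2 of 4 genes higher. Col13a1, a membrane collagen of the neuromuscular junction, differed by 0.08, and Col25a1, which motor axons need to innervate muscle in mice, by -0.14 (SE 0.11). Col17a1 and Col23a1 differed by -0.01 and 0.08. The short-chain network collagens Col8a1, Col8a2 and Col10a1 differed by -0.06, 0.04 and 0.08, the anchoring fibril chain Col7a1 by -0.01, and Col26a1 and Col28a1 by 0.01 and -0.13. None of these genes passed the limma test over all genes, and none had an unadjusted limma p under 0.05.

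Collagen values varied from animal to animal within each genotype. The mean over all 44 genes was 5.38, 5.42, 5.49 and 5.33 in knockouts 1 to 4, against 5.46, 5.24, 5.52 and 5.46 in wild types 1 to 4. Wild type 2 was the lowest of the 8 animals for 25 members, a position it held for 21.1% of all genes. It was the highest for 0 members, against 24.6% of all genes. Relative to each gene's own mean over the 8 arrays, its members had a median of -0.18, and all genes in that array had a median of 0.01. The low position was held by 7 of 11 fibrillar, 2 of 6 type IV and 16 of 27 other genes. Knockout 4 was the lowest animal for 9 members, and wild type 3 was the highest for 15.

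Without wild type 2, 8 members were higher and 36 lower in knockout, and 45.6% of all genes were higher. The median difference was -0.07, against -0.01 over all genes. Leaving out wild type 2 necessarily lowers the difference of the 25 members for which it was the lowest animal. The class medians without it were -0.06 for the fibrillar, -0.06 for the type IV and -0.07 for the other genes. In that fit 0 members passed over all genes. Col6a4 (-0.30), Col14a1 (-0.31) and Col25a1 (-0.23) had an unadjusted limma p under 0.05, with limma adjusted p values of 0.677, 0.707 and 0.707. In the fit of all 8 arrays 5.73% of all genes had an unadjusted limma p under 0.05. The share in the fit without wild type 2 is not given here. Without wild type 3 the split was 27 higher and 17 lower, and 45.7% of all genes were higher. Without knockout 4 it was 26 and 18, and 45.2% of all genes were higher. Of the 44 members, 29 changed sign when 1 or another array was left out.

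**Figure D3:**
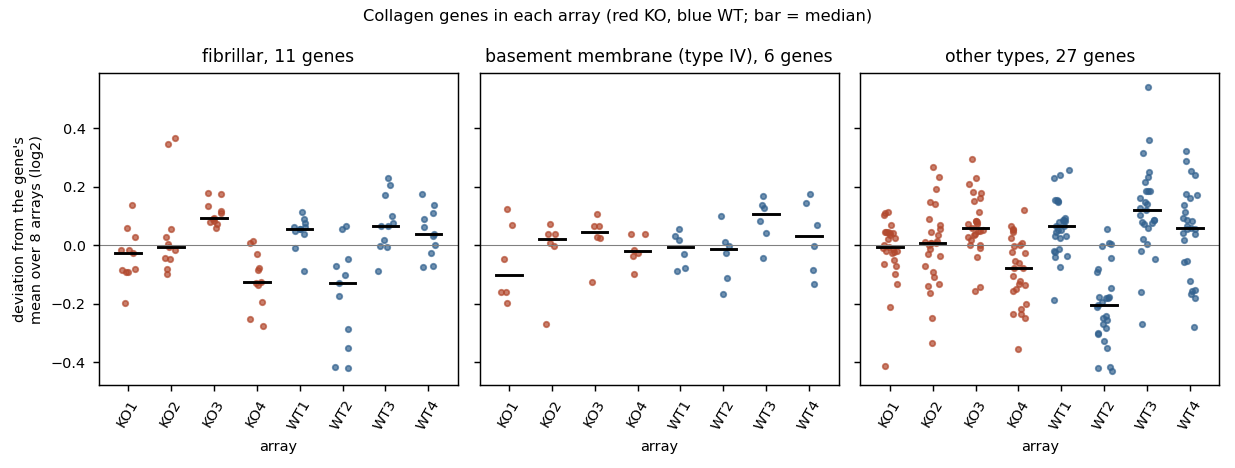
Deviation of each collagen gene in each array from that gene's mean over the 8 arrays (vertical axis, log2 units), knockouts in red left of wild types in blue, in panels by class, with bars at the median. Wild type 2 sits lowest in the fibrillar and other classes, and knockout 4 is the lowest knockout there.

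Chains were compared over the animals in 8 pairs, of which Col1a1 with Col3a1, Col1a1 with Col4a1 and Col1a1 with Col6a1 join chains of different molecules. Col1a1 and Col1a2 varied together, with Pearson r = 0.95 (exact permutation p = 0.000570, adjusted over the 8 pairs 0.00456) and Spearman rho = 0.98 (exact permutation p = 0.000397, adjusted 0.00317, n = 8). Without knockout 4 and wild type 2, the arrays farthest from the Col1a1 median, r was 0.85 and did not pass (adjusted exact permutation p = 0.0944, n = 6). For deviations from the genotype means r was 0.96. Col4a1 and Col4a2, which share the promoter region printed above, had r = 0.85 (exact permutation p = 0.00665, adjusted 0.0266) and rho = 0.79 (exact permutation p = 0.0279, adjusted 0.112). Without knockout 1 and wild type 4 that r was 0.72. The r of this pair passed the adjusted threshold and its rho did not. With 1 array left out its r passed in 4 of 8 refits and not without knockout 1, 2 or 4 or wild type 4 (adjusted exact permutation p up to 0.117), nor did it pass without both wild type 2 and knockout 4 (adjusted 0.0778).

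The other 6 pairs did not pass when adjusted. For Col6a1 and Col6a3, r was 0.69 (exact permutation p = 0.0484, adjusted 0.129, rho = 0.57 with exact permutation p = 0.151). For Col6a1 and Col6a2 it was 0.55 (exact permutation p = 0.159, adjusted 0.227, rho = 0.33 with exact permutation p = 0.428). The r of this pair was -0.01 without both knockout 4 and wild type 1. It was -0.08 without knockout 4 alone and 0.60 without wild type 1 alone, so that relation rested on knockout 4. Col5a1 and Col5a2 had r = 0.57 and rho = 0.50 (exact permutation p = 0.136 and 0.216, adjusted 0.227 and 0.346), and r was 0.40 without knockout 4 and wild type 4. Col1a1 and Col3a1 had r = 0.54 and rho = 0.64 (exact permutation p = 0.170 and 0.0962, adjusted 0.227 and 0.256), and r was 0.24 without knockout 4 and wild type 2. Across classes r was 0.36 for Col1a1 and Col4a1 and 0.44 for Col1a1 and Col6a1 (exact permutation p = 0.384 and 0.294, adjusted 0.384 and 0.335). For those pairs Spearman rho was 0.40 and 0.21 (exact permutation p = 0.327 and 0.619). Without the arrays farthest from the median, knockout 4 and wild type 2, r was 0.47 and -0.21.

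**Figure D4:**
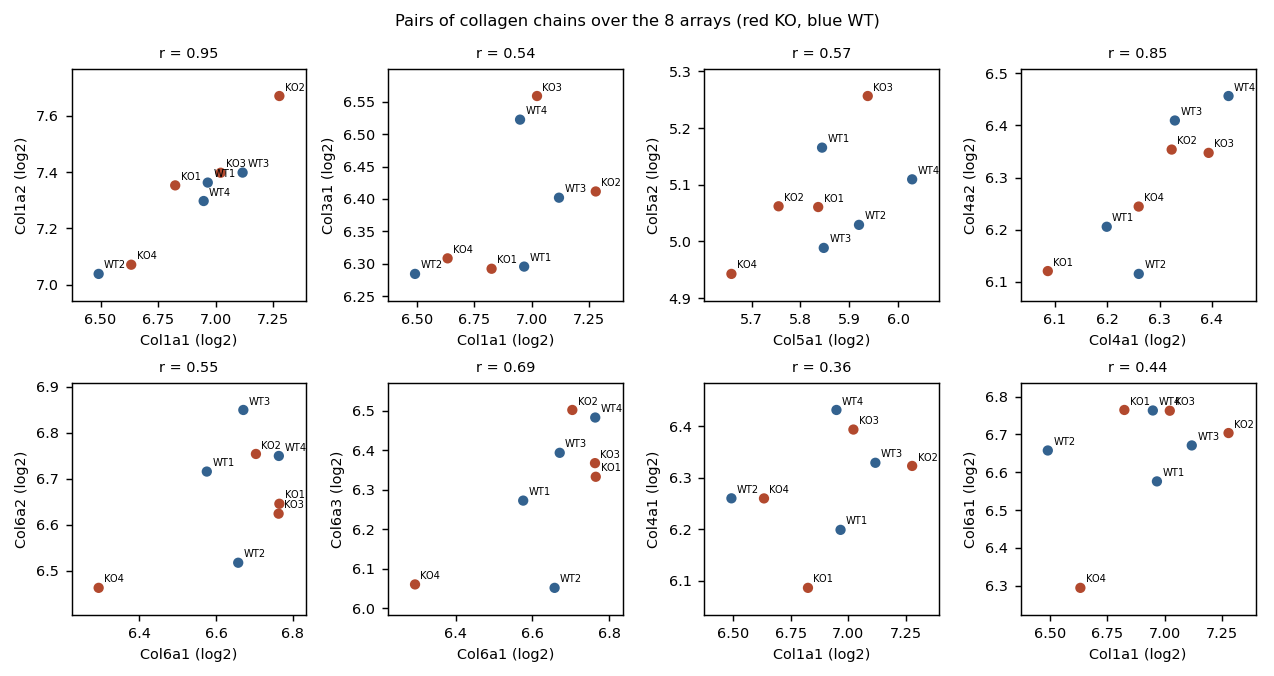
Log2 signal of 8 pairs of collagen chains over the 8 animals (1 point per array, knockouts red, wild types blue), with Pearson r above each panel. Col1a1 against Col1a2 (r = 0.95) and Col4a1 against Col4a2 (r = 0.85) lie close to a line in both genotypes, and the remaining panels scatter more widely.

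The promoter of Col1a2 is shown because its gene followed Col1a1 from animal to animal. The window is chr6:4505368-4505667 on the plus strand of GRCm38.p6, from RefSeq, and the capitals mark matches to CCAAT (or ATTGG on the other strand) and GGGCGG.
Col1a2: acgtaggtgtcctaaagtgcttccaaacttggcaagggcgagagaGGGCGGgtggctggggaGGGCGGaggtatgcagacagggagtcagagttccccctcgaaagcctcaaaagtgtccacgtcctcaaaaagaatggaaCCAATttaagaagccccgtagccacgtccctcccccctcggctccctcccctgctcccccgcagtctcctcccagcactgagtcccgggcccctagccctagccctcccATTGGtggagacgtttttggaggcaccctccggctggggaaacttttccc
It held 2 matches to CCAAT and 2 to GGGCGG, and 0 to TATAAA. Promoter windows were found for 35 of the 44 members, 38 windows in all. CCAAT or its reverse complement was present in 34.2% of member windows and 37.4% of all 32851 windows of the table, GGGCGG in 60.5% and 35.7%, and TATAAA in 13.2% and 13.6%. The matches describe these letters only.

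Tendon markers were set beside type I collagen, since tendon cells make it in quantity. The list mean was 5.84, 6.41, 6.24 and 5.78 in knockouts 1 to 4, against 6.09, 5.97, 6.17 and 5.79 in wild types 1 to 4. Knockout 2 was highest and knockout 4 lowest, as for Col1a1 among the knockouts. Among the wild types both were highest in wild type 3, but the tendon list was lowest in wild type 4 and Col1a1 in wild type 2. Fibroblast and fibro-adipogenic progenitor markers had list means of 7.57, 7.66, 7.64 and 7.45 in knockouts and 7.56, 7.61, 7.73 and 7.63 in wild types. Of the 12 measured, 4 were higher and 8 lower by mean, with a median difference of -0.03 and 0 past the threshold. Pi16, the 1 gene of the list with an unadjusted limma p under 0.05 (5.73% of all genes), differed by -0.29. Pdgfra, which defines these progenitors, measured 6.76 to 6.88 in knockouts and 6.67 to 7.06 in wild types. Smooth muscle and pericyte markers had list means of 7.58 to 7.73 in knockouts and 7.48 to 7.90 in wild types. Schwann cell markers (6 of 9 measured) had list means of 5.40 to 5.85 in knockouts and 5.33 to 6.31 in wild types. Of these 6 genes 1 was higher and 5 lower by mean, and 45.3% of all genes were higher. Their median difference was -0.22, with 0 past the threshold. Ncmap, the 1 Schwann cell gene with an unadjusted limma p under 0.05, differed by -0.57. Adipocyte markers (6 of 7 measured) had list means of 5.75 to 6.82 in knockouts and 5.62 to 6.65 in wild types. The part of these cell types in the collagen values was not tested.

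Macrophage markers had 15 of 17 genes higher by mean, against 45.3% of all genes, with a median difference of 0.20. This list was chosen with earlier results of these data known. The list means were 5.55, 5.49, 5.74 and 6.06 in knockouts, against 5.34, 5.38, 5.46 and 5.34 in wild types. Of these 17 genes 0 passed over all genes in limma and 8 had an unadjusted limma p under 0.05, against 5.73% of all genes. Without knockout 4 all 17 were higher by mean, against 45.2% of all genes, and the median was 0.19. In that fit 7 had an unadjusted limma p under 0.05 and 0 passed. The share of all genes in that fit is not given here, so no excess can be read from the 7. The widest difference of the list was 1.29 for Gpnmb, named here after its values were seen, which measured 9.09 in knockout 4 and 5.32 to 6.59 in the other knockouts, against 5.21 to 5.47 in wild types. Without knockout 4 the Gpnmb difference was 0.47. Knockout 4, with the highest macrophage mean, had the lowest collagen mean of the knockouts (5.33). Knockout 3, with the next highest macrophage mean, had the highest collagen mean of the knockouts (5.49). Wild type 2, with the lowest collagen mean of all (5.24), had a macrophage mean of 5.38. A relation between the 2 lists was not tested.

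Genes that fold, trim, bind and break down collagen were examined by lists, beside 45.3% of all genes higher by mean in knockout. In the folding and hydroxylation list 7 of 17 measured genes were higher, 10 were lower and 0 passed over all genes, with a median difference of -0.04. P4ha1, the catalytic subunit of a prolyl 4-hydroxylase that stabilises the collagen helix, measured 6.84, 6.86, 6.64 and 6.86 in knockouts, against 7.07, 7.19, 7.21 and 7.05 in wild types. The highest knockout lay below the lowest wild type, and the difference of -0.33 (SE 0.09, limma adjusted p = 0.538) missed the threshold. With P4ha1, 2 of the 17 genes had groups that did not overlap, against 3.62% of all genes. In the trimming and cross-linking list 6 of 11 genes were higher and 0 passed (median 0.02), with the procollagen proteinase gene Tll1 at 0.21 and the lysyl oxidase gene Loxl3 at 0.19.

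Collagen breakdown genes were higher by mean in 9 of 12 cases, against 45.3% of all genes, with a median of 0.04 and 0 past the threshold. Ctsk, the collagen-cleaving protease cathepsin K, measured 4.50, 4.95, 5.23 and 6.70 in knockouts, against 4.72, 4.48, 4.96 and 4.54 in wild types (difference 0.67, SE 0.35, limma adjusted p = 0.869). The high value was that of knockout 4, where the macrophage list was highest as well, and without that array the Ctsk difference was 0.22. Timp3, an inhibitor of matrix metalloproteinases, differed by -0.20. Collagen receptors were higher in 3 of 8 cases (median -0.05, 0 passed), with the integrin chain gene Itga11 at -0.17 and Lair1, a receptor of immune cells, at 0.18.

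Small leucine-rich proteoglycans, which bind fibrils and space them, were higher by mean in 8 of 10 cases, against 45.3% of all genes (median 0.07, 0 passed). Omd, which encodes osteomodulin, measured 3.69, 3.68, 3.58 and 3.54 in knockouts, against 3.39, 2.95, 3.48 and 3.37 in wild types (difference 0.33, limma adjusted p = 0.853). It was the 1 gene of the 10 whose groups did not overlap, against 3.62% of all genes. Its signal was dim, below the median of all gene means (4.98). Genes of TGF-beta and other fibrogenic signals were higher by mean in 4 of 18 cases and lower in 14, and 45.3% of all genes were higher. Their median difference was -0.08, with 0 past the threshold. Tgfb3, a TGF-beta ligand, measured 7.75 ± 0.12 in knockouts, against 7.99 ± 0.13 in wild types (SD, n = 4 each, difference -0.25, limma adjusted p = 0.859). Ltbp4, which binds latent TGF-beta in the matrix, measured 7.52 ± 0.23 in knockouts, against 7.83 ± 0.17 in wild types (SD, n = 4 each, difference -0.31, limma adjusted p = 0.859). Tgfb3 and Ltbp4 had overlapping groups. In the whole list of 18 genes, 2 had groups that did not overlap, against 3.62% of all genes.

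**Figure D5:**
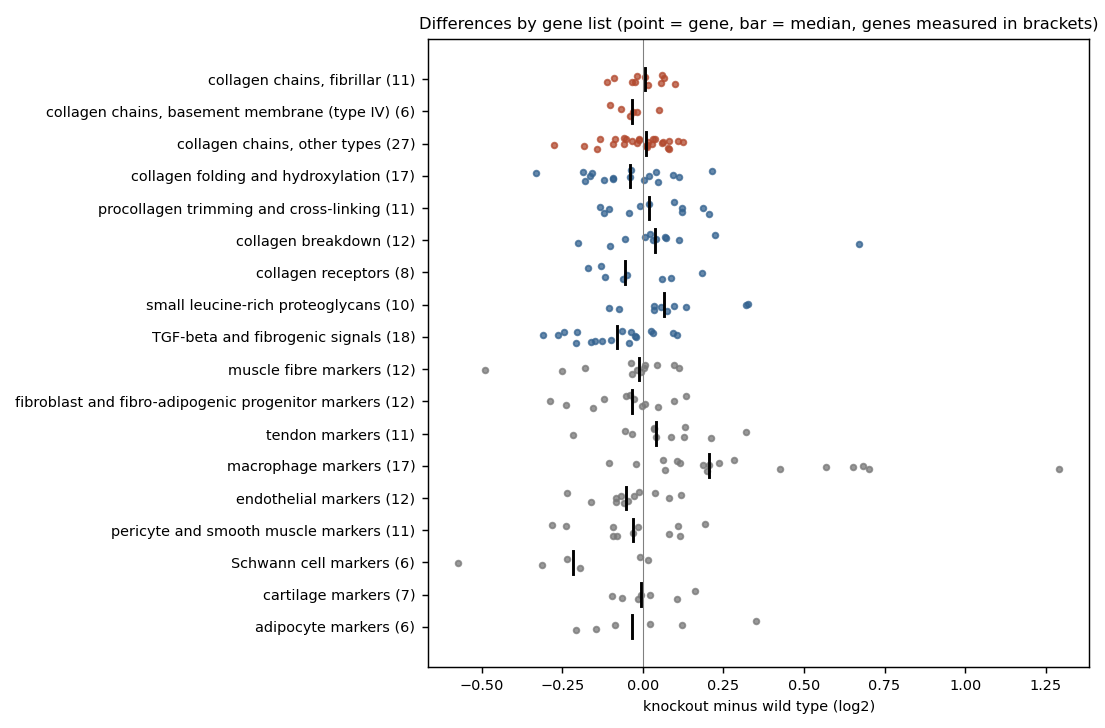
Knockout minus wild-type differences in log2 units (horizontal axis) of each gene in the 3 collagen classes (red), the collagen pathway lists (blue) and the cell type markers (grey), with a bar at each median. Collagen chains lie between -0.28 and 0.12, while the macrophage markers have a median of 0.20 and reach 1.29 (Gpnmb, 0.47 without knockout 4). The Schwann cell markers have a median of -0.22.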

How the data were processed

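Log2 signals of 35556 transcript clusters, as deposited by the authors, were the starting point. The submitters' processing notes name Expression Console and RMA, a method that subtracts background, gives all arrays 1 distribution and summarises each cluster's probes. Settings are not given in the sources used here. Per the labels, 100 ng of total RNA was amplified and 5500 ng of cDNA labelled.

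Clusters with 1 gene symbol (21789) were used, and the highest-mean cluster stood for each of 19938 genes, with no filter on low values. Genotypes came from the labels, which name no batch. Knockout minus wild type was fitted by limma's lmFit and eBayes (limma 3.58.1, R 4.3.3; 6 residual and 6.26 prior degrees of freedom, median SE 0.105). P-values were adjusted by Benjamini-Hochberg over the 19938 genes, and calls made at 0.05. An adjusted p is from that fit unless another setting or the chain pairs are named beside it. Chain pairs used exact two-sided permutation of pairings, adjusted over the 8 pairs. The fit was tested on simulated data.

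Members, classes and gene lists were chosen with earlier results of these data known. All members could be named, and values in every array were given for the 5 brightest per class and for members with an unadjusted p under 0.05. From each pathway list up to 4 genes with an unadjusted p under 0.05 were named, or otherwise the 2 with the smallest p. List entries with no single-gene cluster included Fkbp10, Adamts2, Loxl2, Gp6, Ly6a, Fbn1, Prx and Cfd, and some list entries are not reported here. Dcn, Fmod, Kera, Lum and Pcolce are in both a pathway and a marker list. Alternatives were other normalizations, filters, cluster means, variance priors, array weights, a replicate block, left-out arrays, thresholds and class borders. Promoter windows came from RefSeq tables of GRCm38.p6. The array's build is not given in the sources used here, and no array coordinates are printed. Plots were made in Python 3.11.15 (matplotlib 3.10.9).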

Additional observations from a re-analysis of the deposited data

Results flagged for a closer look

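In a group of 4 animals a value was marked where its gap to the nearest other animal took up most of the group's range (Dixon's 95% limit). This was the case for 11 of 110 groups tested. The limit marks about 5% by chance where values are normally distributed and groups independent. The share over all genes was not computed, so no excess can be read from the count. In 3 cases the animal was wild type 2. Col2a1 measured 5.13 there, against 5.64 to 5.66 in the other wild types, Col20a1 4.89 (against 5.28 to 5.36) and Col22a1 4.95 (against 5.43 to 5.45). In knockout 3, Col13a1 measured 5.58, against 5.38 to 5.40 in the other knockouts, Col22a1 5.45 (against 5.41 in each) and P4ha1 6.64 (against 6.84 to 6.86). In knockout 1, Col8a1 measured 5.03 (against 5.51 to 5.59) and Col8a2 4.35 (against 4.50 to 4.52). Col4a3 measured 4.67 in knockout 2 (against 4.96 to 5.01) and Col6a1 6.29 in knockout 4 (against 6.70 to 6.76). Col24a1 measured 5.23 in wild type 3, against 5.29 to 5.30 in the other wild types.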

How the results depend on the processing

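The count of 0 collagen genes past the threshold held in all 20 alternatives, with 0.597 as the smallest limma adjusted p of a member, and so did the count of 0 for the pathway lists. The class medians moved by less than the spread of the array means. They ran from -0.06 to 0.04 for fibrillar, -0.07 to 0.00605 for type IV and -0.07 to 0.04 for other genes when 1 array was left out. Over all genes the count of 3 became 11 and 13 without the dimmest 25% and 50% of genes, 17 with an intensity trend and robust prior together, 1 without wild type 2 and knockout 4 together, 16 at a threshold of 0.1 and 0 when adjusted over all clusters, and ran from 0 to 5 when 1 array was left out. The labels name no pairing of same-numbered animals. The correlations of their deviations were 0.09, 0.07, 0.22 and -0.10, which cannot settle whether they were paired. With the replicate block the count over all genes was 0. The Kat2a difference was -0.66 with the replicate block, -0.64 without wild type 2 and knockout 4 together and -0.66 adjusted over all clusters (limma adjusted p = 0.113, 0.135 and 0.0660), and ran from -0.68 to -0.64 with 1 array left out, passing without wild type 1 or 2 only. Of the 8 chain pairs 2 passed, 1 to 2 with 1 array left out and 0 without wild type 2 and knockout 4 together, where 6 arrays remained. Col1a1 with Col1a2 passed in each of the 8 refits, and Col4a1 with Col4a2 not without knockout 1, 2 or 4 or wild type 4.

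Signs of members changed as follows, with no member past the threshold. Array weights, in which wild type 2 had a weight of 0.323, left 13 members higher, and 45.9% of all genes were higher. They gave Col13a1 -0.0177, Col1a1 -0.00286, Col20a1 -0.0330, Col23a1 -0.0355, Col26a1 -0.0700, Col2a1 -0.0326, Col5a2 -0.00595, Col6a1 0.00806, Col8a2 -0.0390 and Col9a2 -0.0202. Without wild type 2 and knockout 4 together the differences were Col13a1 -0.0350, Col18a1 -0.107, Col20a1 -0.0548, Col22a1 -0.00881, Col26a1 -0.0539, Col2a1 -0.0672, Col6a1 0.0736, Col8a2 -0.0863 and Col9a2 -0.0145. The mean over clusters gave Col6a5 0.0340. With 1 array left out they ran as follows: Col11a1 -0.0716 to 0.000792, Col11a2 -0.144 to 0.0495, Col12a1 -0.0732 to 0.0883, Col13a1 -0.0478 to 0.140, Col15a1 -0.00887 to 0.114, Col17a1 -0.0952 to 0.0296, Col18a1 -0.0909 to 0.0903, Col1a1 -0.0713 to 0.160, Col1a2 -0.000317 to 0.199, Col20a1 -0.0773 to 0.0794, Col22a1 -0.0117 to 0.154, Col23a1 -0.000547 to 0.173, Col26a1 -0.0571 to 0.0750, Col27a1 -0.0633 to 0.0372, Col2a1 -0.0734 to 0.104, Col3a1 -0.0387 to 0.0654, Col4a1 -0.0818 to 0.0206, Col4a2 -0.0906 to 0.0231, Col4a3 -0.103 to 0.0100, Col4a4 -0.0644 to 0.0258, Col5a2 -0.0514 to 0.0532, Col6a1 -0.0799 to 0.0767, Col6a3 -0.0673 to 0.101, Col6a5 -0.121 to 0.0966, Col7a1 -0.113 to 0.0405, Col8a1 -0.211 to 0.0703, Col8a2 -0.0742 to 0.139, Col9a1 -0.00331 to 0.124 and Col9a2 -0.0272 to 0.0721. The cause of these changes was not tested.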
